A study of Mus musculus with 6 samples.

Results

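C2C12 myotubes exposed to 50 µg/mL of sugarcane top ethanolic extract (STEE) were compared with myotubes exposed to 30 µg/mL of the same extract, to ask what the higher dose adds to or takes from the lower one. The comparison was defined by the sample labels alone. It holds 4 of the 6 arrays of the series, 2 of STEE50-M (50 µg/mL) and 2 of STEE30-M (30 µg/mL), and the 2 untreated Ctrl-M arrays stayed outside the fit. C2C12 is an established mouse myoblast line. All cells were kept in differentiation medium with horse serum for 6 days, the treated ones were then given the extract in serum-free Opti-MEM for 6 h, and Ctrl-M cells were untreated and had their RNA taken on the same schedule. The extract is kept as a stock in aqueous ethanol, and whether the ethanol was made equal between 30 and 50 µg/mL, or given to Ctrl-M, is stated neither in the labels nor in the methods. The study speaks of biological samples and the series of arrays run in duplicate, so every p-value rests on the spread of these 4 arrays, which may be technical. With 2 arrays against 2, an exact permutation test cannot go below p = 0.333.

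Sugarcane tops hold polyphenols, mainly caffeoyl and feruloyl quinic acids and flavonoid glycosides. Myotubes are long multinucleate cells made by the fusion of myoblasts, and they carry sarcomeres, the repeated units of thin actin and thick myosin filaments that shorten when calcium leaves the sarcoplasmic reticulum. Fusion itself depends on a pair of muscle membrane proteins, myomaker and myomixer. Muscle cells are also a main site of mitochondrial oxidation of sugars and fats.

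Clariom S Mouse arrays measured the total RNA. Each level below is a log2 signal as deposited, and each difference is the log2 fold change of STEE50-M minus STEE30-M, given ± its standard error from limma (n = 2 arrays a dose), so that a difference of 1 is 2-fold. Array medians lay between 5.70 and 5.77. Of 22206 probe sets, 12071 had a mean over the 4 arrays above a background level of 5.31, which is the 95th percentile of 1448 probe sets for odorant, vomeronasal and taste receptors. All 11 measured myotube markers lay above background. Of the markers of other cells, 9 of 11 for fibroblasts, 10 of 12 for myoblasts and reserve cells, 3 of 10 for adipocytes, 2 of 12 for macrophages and leukocytes, 2 of 10 for endothelium and 3 of 10 for neurons and glia lay above it. The STEE50-M arrays correlated with each other at 0.993 and the STEE30-M arrays at 0.991, and arrays of different doses correlated at 0.992 to 0.993. Thus arrays of unlike dose were as close as arrays of like dose.

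At the thresholds used in the study, a p under 0.05 before adjustment with a linear fold of 1.2 or more, limma called 821 probe sets between the doses, 387 higher and 434 lower in STEE50-M. This is 3.70% of all probe sets, 1.74% higher and 1.95% lower. After Benjamini-Hochberg adjustment limma left 0 probe sets under 0.05 (0.00%), where 821 were under it before, and the smallest adjusted p was 0.997. Below, a gene that passed, was called, was higher or was lower did so at the unadjusted thresholds only. Above background, 247 probe sets passed (2.05%), of which 156 were higher and 91 lower in STEE50-M. At or below background 574 passed (5.66%), and there the split was 231 higher and 343 lower. The 2 groups of arrays did not overlap in 26.4% of the probe sets above background, whether called or not.

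**Figure D1:**
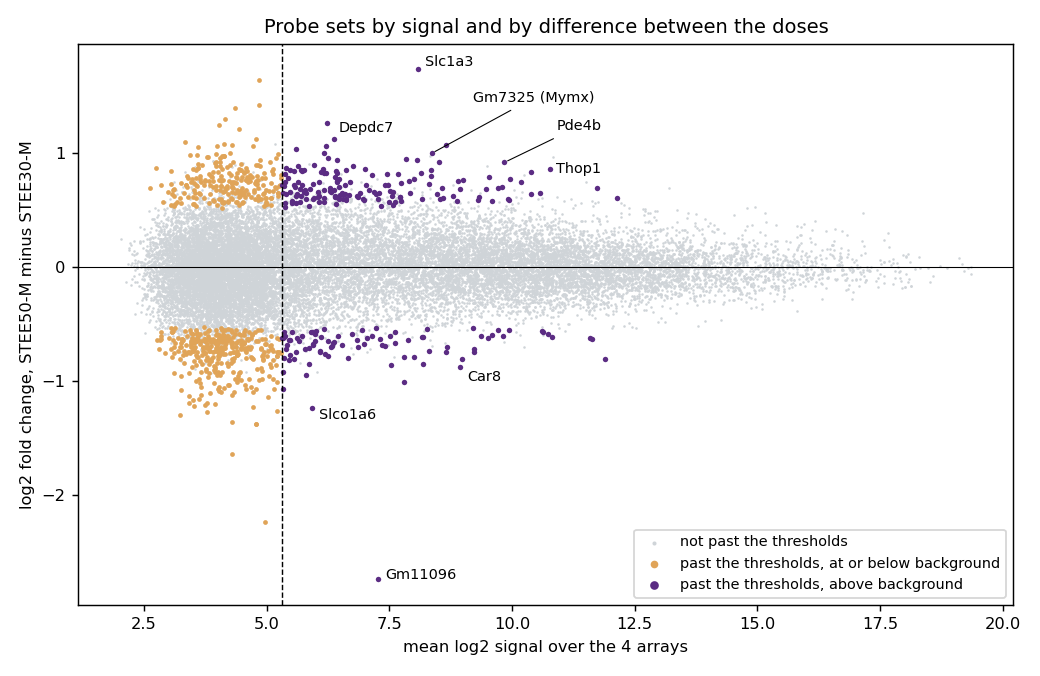
Each point is a probe set, with its mean log2 signal over the 4 arrays on the x axis and the log2 fold change of STEE50-M minus STEE30-M on the y axis. The dashed line is the background level of 5.31, and the purple points to its right are the 247 probe sets past the thresholds above background, 156 of them above 0.

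The gene with the largest moderated t above background was *Slc1a3*, which encodes a plasma membrane glutamate transporter best known from astrocytes. Its log2 signal was 9.39 and 8.51 in the STEE50-M arrays, against 7.19 and 7.24 in the STEE30-M arrays. Both STEE50-M arrays lay well above both STEE30-M arrays, by 1.74 on average (± 0.31, adjusted p = 0.997), a 3.33-fold difference. The Ctrl-M arrays, at 7.11 and 7.50, lay with those of STEE30-M. The difference was between 1.30 and 2.18 when each array was left out in turn, and it passed in each case, though not in a test without moderation of the variance. *Slc1a3* lies on chromosome 15 from 8634124 to 8710807 (GRCm38.p6).

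Next came *Gm7325*, which RefSeq names *Mymx*, the gene of the fusion protein myomixer (chromosome 17, 45600961 to 45602196). Its signal was 8.75 and 8.98 in STEE50-M, against 7.77 and 7.96 in STEE30-M, and 7.78 and 7.98 in Ctrl-M. The 2 lower groups were nearly the same and STEE50-M stood apart from both, by 1.00 ± 0.24 from STEE30-M, a 2-fold difference. It passed with each array left out, at 0.89 to 1.12. It was the only one of 22 measured genes of myoblast fusion to pass (4.55%, against 3.62% of all genes). The list as a whole had a median log2 fold change of -0.02, with 10 members above 0 and 12 below, against a median of -0.01 over all 21154 genes.

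*Pde4b* encodes a phosphodiesterase that breaks down cAMP, the second messenger of adrenergic signalling in muscle, and lies on chromosome 4 from 102087332 to 102607275. It had a signal of 10.50 and 10.11 in STEE50-M, against 9.54 and 9.23 in STEE30-M, a difference of 0.92 ± 0.26. The Ctrl-M arrays, at 8.96 and 9.08, lay below all 4 treated arrays, so the order followed the dose. Without STEE50-M replicate 1 the difference was 0.73 and no longer passed. *Nr4a2*, an orphan nuclear receptor and immediate early gene induced by cAMP, was at 10.78 and 10.34 in STEE50-M, against 9.65 and 9.98 in STEE30-M, a difference of 0.75 ± 0.26. The Ctrl-M values of *Nr4a2*, 9.89 and 10.13, overlapped those of STEE30-M. Its difference did not pass without STEE50-M replicate 1 (0.53) or without STEE30-M replicate 1 (0.58).

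The promoters of these genes are shown because CREB, the factor through which cAMP acts on transcription, binds the letters TGACG, and *Pde4b* and *Nr4a2* are members of the cAMP response list. *Slc1a3* is shown as the gene with the largest t. The choice of these 3 genes and of the motif followed a look at the values. The sequences run 5′ to 3′ on the strand of the gene, from 250 bases before to 50 bases after the start given by RefSeq (GRCm38.p6), with TGACG and its reverse complement CGTCA in capitals. The *Slc1a3* window is chr15:8710758-8711057 on the minus strand, that of *Nr4a2* is chr2:57123954-57124253 on the minus strand, and that of *Pde4b* is chr4:102421305-102421604 on the plus strand, the only one of its 4 listed promoters with a match.
Slc1a3: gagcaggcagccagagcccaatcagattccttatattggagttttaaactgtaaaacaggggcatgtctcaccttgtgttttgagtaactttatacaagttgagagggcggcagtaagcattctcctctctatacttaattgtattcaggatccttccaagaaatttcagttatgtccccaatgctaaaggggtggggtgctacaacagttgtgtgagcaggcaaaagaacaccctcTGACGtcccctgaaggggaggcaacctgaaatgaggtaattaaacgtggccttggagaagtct
Nr4a2: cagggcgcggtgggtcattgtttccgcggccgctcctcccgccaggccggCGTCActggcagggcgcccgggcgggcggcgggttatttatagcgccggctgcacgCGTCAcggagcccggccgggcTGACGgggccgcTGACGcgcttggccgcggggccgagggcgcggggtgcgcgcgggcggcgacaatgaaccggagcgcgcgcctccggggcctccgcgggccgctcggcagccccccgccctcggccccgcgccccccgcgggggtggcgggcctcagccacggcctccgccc
Pde4b: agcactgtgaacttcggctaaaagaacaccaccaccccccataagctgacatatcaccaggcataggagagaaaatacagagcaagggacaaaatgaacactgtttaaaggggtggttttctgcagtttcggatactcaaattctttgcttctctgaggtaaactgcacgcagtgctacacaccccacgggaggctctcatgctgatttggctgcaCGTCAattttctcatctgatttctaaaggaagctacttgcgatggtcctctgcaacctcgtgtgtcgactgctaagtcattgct
The 5 letters occur once in the *Slc1a3* window, 4 times in that of *Nr4a2* and once in this *Pde4b* window. On both strands, 20.8% of 32851 listed promoters hold them, and 1.79% hold the full palindrome TGACGTCA, which none of the listed promoters of these 3 genes does. Of the 30 genes with the highest or lowest t, 19 had a promoter in the table.

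Of the 44 measured members of the cAMP response list only *Pde4b* and *Nr4a2* passed, both higher, and the median was 0.05. Among genes, counted by the brightest probe set of each symbol, 3.62% passed, 1.72% higher and 1.91% lower. Of 23 cyclic nucleotide phosphodiesterases, 13 lay above background. A positive log2 fold change was seen in 17 of the 23 (73.9%, against 49.2% of all genes). The median was 0.20, or 0.16 over members above background. That of all 23 lay between 0.12 and 0.22 with each array left out. *Pde4b* and *Pde3b*, another cAMP-degrading enzyme and a target of insulin signalling, were higher. *Pde3b* was at 9.77 and 9.99 in STEE50-M, against 9.50 and 9.09 in STEE30-M and 9.06 and 9.13 in Ctrl-M, and its difference of 0.59 ± 0.25 did not pass when STEE50-M replicate 1 (0.70), STEE50-M replicate 2 (0.48) or STEE30-M replicate 2 (0.38) was left out. *Pde1b*, a calcium- and calmodulin-dependent member, was lower by 0.63 on the log2 scale, at a signal below background, and its call was lost without STEE50-M replicate 1 (-0.40), STEE30-M replicate 1 or STEE30-M replicate 2. Among 38 immediate early genes, *Nr4a2* and the small MAF factor *Maff* (0.56, below background) were higher and none was lower, with a median of 0.10. The call of *Maff* held only without STEE30-M replicate 1.

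**Figure D2:**
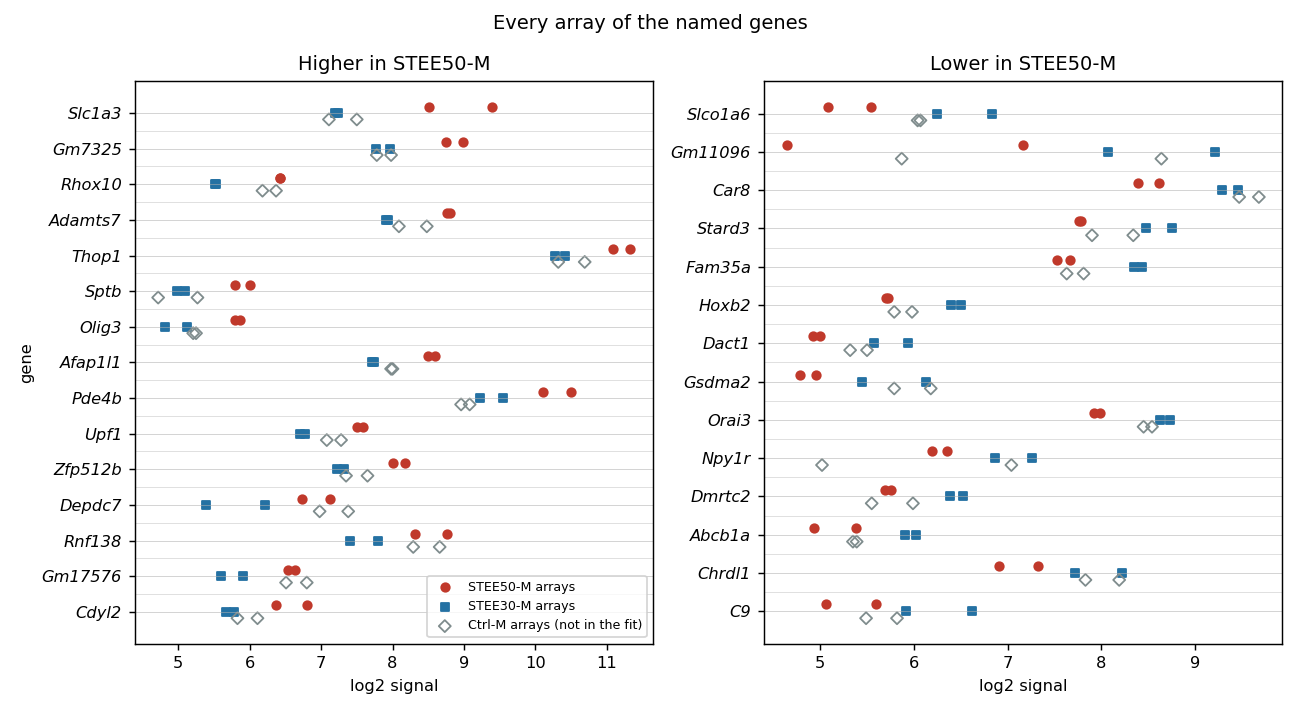
Log2 signal on the x axis for the 15 genes with the highest moderated t and, save 1 not reported here, the 15 with the lowest, 1 gene a row, with each STEE50-M array as a red circle, each STEE30-M array as a blue square and each Ctrl-M array as an open diamond. By construction red and blue do not overlap, and for 10 of the 15 genes on the left the diamonds average nearer to the blue squares.

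The other 12 genes of the 15 highest differed by 0.81 to 1.13, and each of the 15 lay between 1.75-fold and 3.33-fold. *Adamts7*, a metalloproteinase of the extracellular matrix, was at 8.76 and 8.80 in STEE50-M, against 7.91 and 7.94 in STEE30-M. *Thop1*, a peptidase of the cytosol, was at 11.09 and 11.32 in STEE50-M, against 10.27 and 10.41 in STEE30-M. *Sptb*, which encodes a beta-spectrin of the membrane skeleton, was at 5.79 and 6.00 in STEE50-M, against 4.99 and 5.10 in STEE30-M. Close arrays within a dose and a gap between the doses follow from the choice of these genes by t and by lack of overlap. *Afap1l1*, which encodes an actin filament-associated protein, was higher by 0.83 and *Upf1*, the RNA helicase of nonsense-mediated decay, by 0.81. The homeobox gene *Rhox10* was higher by 0.90, the neural transcription factor gene *Olig3* by 0.87, the zinc finger gene *Zfp512b* by 0.82 and the chromodomain gene *Cdyl2* by 0.87. *Rhox10*, *Olig3*, *Sptb*, *Cdyl2* and *Gm17576* had mean signals within 1 unit of the background level. The STEE30-M arrays of *Sptb* and *Olig3* lay below it, so these genes passed the background filter only through STEE50-M. Of the 15, 11 passed with each array left out in turn. The calls of *Pde4b*, *Depdc7* and *Rnf138* did not hold in every case, nor did that of *Cdyl2*, which was at 0.65 without STEE50-M replicate 2.

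In some of these genes it was STEE30-M, not STEE50-M, that stood apart from Ctrl-M. *Depdc7* was at 7.12 and 6.74 in STEE50-M, against 6.22 and 5.39 in STEE30-M, a difference of 1.13 ± 0.32. Its Ctrl-M arrays read 7.38 and 6.98, and so overlapped those of STEE50-M. The difference was 0.94 without STEE50-M replicate 1 and 0.71 without STEE30-M replicate 2, and passed in neither case. *Rnf138*, a ubiquitin ligase of DNA break repair, was at 8.32 and 8.76 in STEE50-M, against 7.41 and 7.79 in STEE30-M, with Ctrl-M at 8.66 and 8.29, and its difference of 0.94 ± 0.27 did not pass without STEE50-M replicate 2 (0.72) or STEE30-M replicate 1 (0.75). The predicted gene *Gm17576* had the same order, at 6.54 and 6.63 in STEE50-M, against 5.60 and 5.91 in STEE30-M, with Ctrl-M at 6.51 and 6.80. *Acad10*, of the acyl-CoA dehydrogenase family, was at 6.45 and 6.44 in STEE50-M, against 5.70 in both STEE30-M arrays, a difference of 0.75 ± 0.23, and its Ctrl-M arrays read 6.31 and 6.26.

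Over all 156 probe sets that were higher above background, the Ctrl-M mean lay nearer to that of STEE30-M in 89 and nearer to that of STEE50-M in 67. It lay between the doses in 114, beyond STEE30-M in 26 and beyond STEE50-M in 16. Of the 91 lower ones, it was nearer to STEE30-M in 49 and to STEE50-M in 42, and it lay between the doses in 70. These counts describe where untreated cells fell and carry no test.

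**Figure D3:**
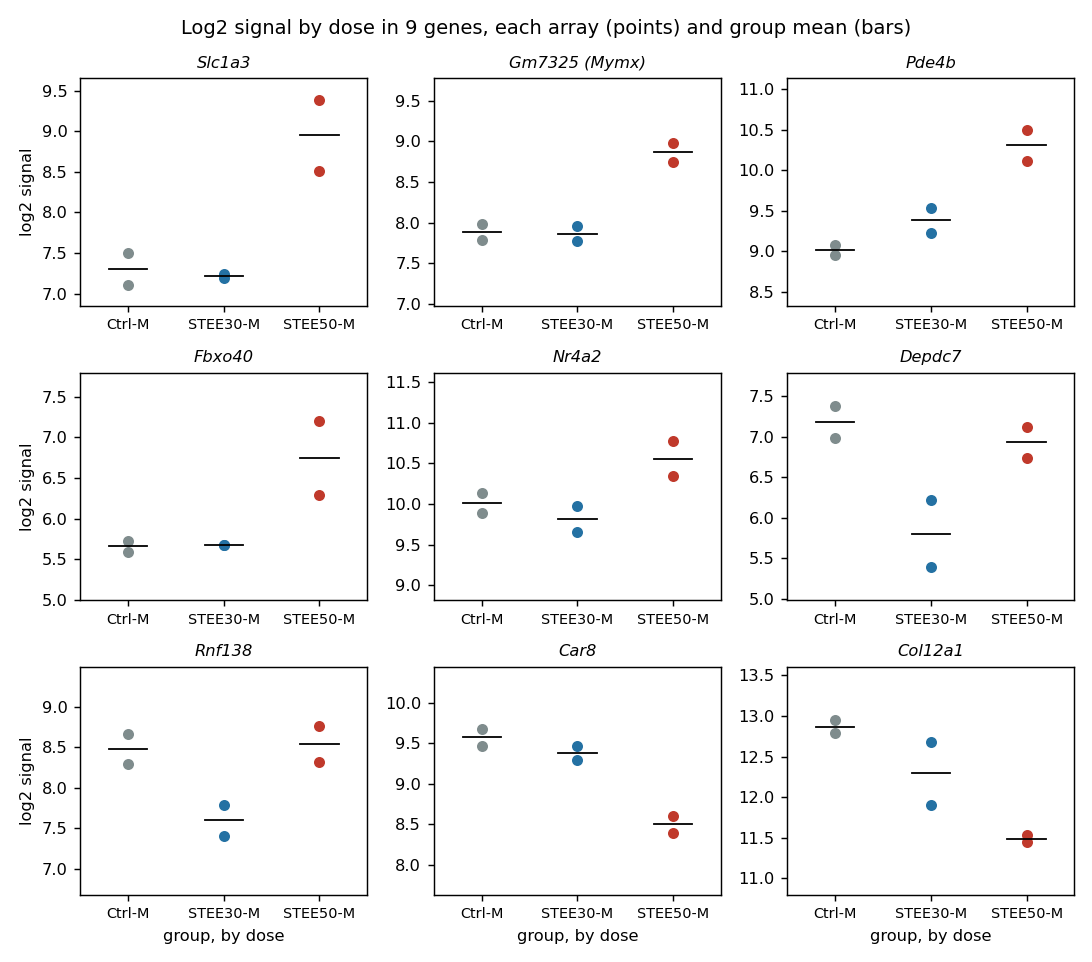
Log2 signal on the y axis of 9 genes in Ctrl-M, STEE30-M and STEE50-M, in the order of dose, with each array as a point and each group mean as a bar. In *Slc1a3*, *Gm7325* (*Mymx*) and *Fbxo40* only STEE50-M stands apart, in *Pde4b* and *Col12a1* the means follow the dose, and in *Depdc7* and *Rnf138* STEE30-M is the lowest group.

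Of the genes lower in STEE50-M, *Slco1a6*, a member of the organic anion transporter family, had the lowest t. Its signal was 5.54 and 5.08 in STEE50-M, against 6.25 and 6.83 in STEE30-M and 6.04 and 6.07 in Ctrl-M, a difference of -1.23 ± 0.29 between the doses. It passed with each array left out, between -1.52 and -0.94, though not without moderation of the variance. *Car8*, which encodes a carbonic anhydrase-related protein that binds the inositol trisphosphate receptor, was at 8.61 and 8.39 in STEE50-M, against 9.29 and 9.46 in STEE30-M. Ctrl-M was at 9.68 and 9.47 and lay with STEE30-M. The difference of -0.88 ± 0.24 passed with each array left out. *Orai3*, a store-operated calcium channel subunit of the plasma membrane, was at 7.98 and 7.92 in STEE50-M, against 8.63 and 8.73 in STEE30-M and 8.54 and 8.45 in Ctrl-M (-0.73 ± 0.23, a call lost without STEE50-M replicate 2).

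In some of the lower genes STEE30-M was the highest group and the Ctrl-M mean lay between the doses. *Stard3*, a cholesterol-binding protein of endosomes, was at 7.76 and 7.78 in STEE50-M, against 8.75 and 8.48 in STEE30-M and 7.90 and 8.34 in Ctrl-M. *Fam35a*, named *Shld2* in RefSeq and part of the shieldin complex of DNA repair, was at 7.53 and 7.67 in STEE50-M, against 8.43 and 8.35 in STEE30-M and 7.63 and 7.81 in Ctrl-M. In 9 of the 15 lowest genes the Ctrl-M mean was nearer to STEE50-M. *Stard3* (-0.85) passed with each array left out, and *Fam35a* (-0.79) did not pass without STEE50-M replicate 1 (-0.72).

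Among these 30 genes the largest difference, and the largest standard error, was that of the predicted gene *Gm11096*, at -2.74 ± 0.72. Its signal was 7.16 and 4.65 in STEE50-M, against 8.07 and 9.21 in STEE30-M, and its 2 Ctrl-M arrays read 5.87 and 8.64. It was at -1.48 without STEE50-M replicate 2 and at -2.17, not passing, without STEE30-M replicate 2. *Npy1r*, a neuropeptide Y receptor, likewise had Ctrl-M arrays far apart, at 5.02 and 7.04, around 6.19 and 6.35 in STEE50-M and 6.87 and 7.26 in STEE30-M. Others of the 15 were the homeobox gene *Hoxb2* (-0.74), the Wnt modulator *Dact1* (-0.80), the gasdermin *Gsdma2* (-0.92), *Dmrtc2* (-0.73), the drug efflux pump *Abcb1a* (-0.81), the BMP antagonist *Chrdl1* (-0.86) and *C9*, the pore protein of complement (-0.94). *Slco1a6*, *Hoxb2*, *Dact1*, *Gsdma2*, *Dmrtc2*, *Abcb1a* and *C9* had mean signals within 1 unit of the background level. The STEE50-M means of *Dact1*, *Gsdma2* and *Abcb1a* lay below it, so these genes passed the background filter only through STEE30-M. Of those given here, *Slco1a6*, *Car8*, *Stard3* and *Hoxb2* passed with each array left out. The calls of *Gsdma2*, *Abcb1a* and *C9* were lost without STEE50-M replicate 1 or STEE30-M replicate 1, with *Gsdma2* at -0.58 and *C9* at -0.59 without STEE30-M replicate 1. Those of *Dact1* were lost without STEE50-M replicate 2 or STEE30-M replicate 1, of *Chrdl1* without replicate 2 of either dose, and of *Npy1r* and *Dmrtc2* without STEE50-M replicate 1 or STEE30-M replicate 2.

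Genes of contraction stood highest on 1 of the 2 STEE50-M arrays and not on the other. Of 112 measured genes of the thick filament, thin filament, Z disc and M band, and excitation-contraction coupling, 98 lay above background. None passed the thresholds in either direction, against 3.62% of all genes and 1.99% of genes above background. Of the 112, 92 had a positive log2 fold change (82.1%, against 49.2% of all genes) and the median was 0.26. Their mean log2 signal was 10.37 and 10.96 in STEE50-M, against 10.28 and 10.57 in STEE30-M, and 10.34 and 10.44 in Ctrl-M. Thus STEE50-M replicate 2 was the highest array and STEE50-M replicate 1 lay between the STEE30-M arrays. STEE50-M replicate 2 was the highest of the 4 arrays for 82 of the 112 genes (73.2%), against 24.7% of all genes. Without that array the median was -0.06, and without STEE50-M replicate 1 it was 0.56.

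By role, the median was 0.32 for 10 myosin heavy chains, 0.23 for 12 myosin light chains and related genes, 0.28 for 22 genes of the thin filament and troponins, 0.23 for 35 genes of the Z disc, M band and titin filament, and 0.21 for 33 genes of excitation-contraction coupling. Without STEE50-M replicate 2 these medians were -0.16, -0.09, -0.01, -0.07 and -0.02. *Myh7*, the slow myosin heavy chain, was at 10.64 and 12.49 in STEE50-M, against 11.06 and 10.98 in STEE30-M. Here the 2 STEE50-M arrays lay on either side of STEE30-M. *Myh3*, embryonic myosin heavy chain, was at 17.13 and 17.67 in STEE50-M, against 16.90 and 16.94 in STEE30-M, without overlap (0.48 ± 0.26). *Casq1*, which holds calcium in the sarcoplasmic reticulum, was at 10.75 and 11.90 in STEE50-M, against 9.89 and 10.82 in STEE30-M, and just missed the thresholds (0.97 ± 0.43). *Ankrd2*, a stretch-responsive protein of the I band, was at 8.23 and 9.42 in STEE50-M, against 7.35 and 8.35 in STEE30-M (0.98 ± 0.45), and *Tcap*, the titin cap, was at 6.53 and 6.50 in STEE50-M, against 5.30 and 6.25 in STEE30-M (0.74 ± 0.33).

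The same array stood apart at the synapse genes and at the histones, in opposite directions. Of 18 genes of the acetylcholine receptor and neuromuscular synapse, 16 had a positive log2 fold change, against 49.2% of all genes. None passed, where 3.62% of all genes did. The median was 0.13 and was 0.05 without STEE50-M replicate 2. *Chrng*, the embryonic gamma subunit of the receptor, was at 13.10 and 13.98 in STEE50-M, against 12.59 and 13.10 in STEE30-M (0.70 ± 0.34). Of 56 replication-dependent histone genes, which are expressed in S phase, none passed, and 49 had their lowest value on STEE50-M replicate 2 (87.5%, against 24.6% of all genes). Their mean signal was 14.37 and 13.69 in STEE50-M, the highest and the lowest of the 4 arrays, against 13.91 and 14.20 in STEE30-M. The median was -0.04 with all arrays, 0.30 without STEE50-M replicate 2 and -0.38 without STEE50-M replicate 1. Of 71 genes of the cell cycle and DNA replication, 43 were lowest on that array, and the median was -0.11, or 0.03 without it. Only *Gmnn*, the replication inhibitor geminin, was higher (0.63) and *Ccne1*, cyclin E1, lower (-0.53), and neither call held without STEE50-M replicate 1, STEE50-M replicate 2 or STEE30-M replicate 2, nor that of *Ccne1* without STEE30-M replicate 1. In bulk samples, fewer cells of a kind and less RNA per cell cannot be told apart, and the part of cell composition in these array differences was not tested. Markers of myoblasts and reserve cells had means of 9.15 and 9.03 in STEE50-M, against 9.14 and 9.02 in STEE30-M, and those of fibroblasts 10.15 and 10.10, against 10.06 and 10.08 in STEE30-M. *Dpt*, a matrix protein among the fibroblast markers, was higher (0.66) and *Aif1*, a macrophage marker below background, was lower, and neither call held with each array left out. Markers of myotubes had means of 13.90 and 14.82 in STEE50-M, against 13.90 and 14.11 in STEE30-M. They include genes of the contraction lists, such as *Myh3* and *Casq1*, so these means are no separate readout.

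**Figure D4:**
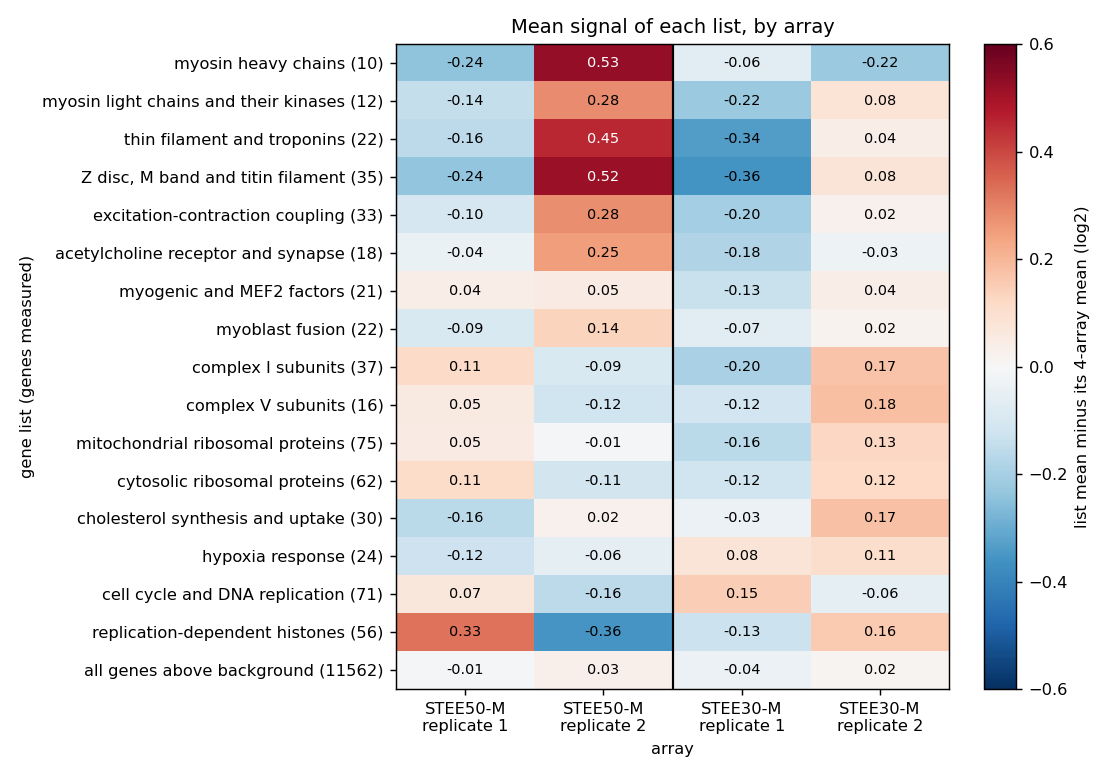
Mean log2 signal of each gene list on each of the 4 arrays, minus the mean of that list over the 4 arrays, with the number of genes measured in brackets. The first 5 rows, genes of contraction, read 0.28 to 0.53 on STEE50-M replicate 2 and below 0 on STEE50-M replicate 1, while the histones read -0.36 and 0.33 on these arrays.

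**Figure D5:**
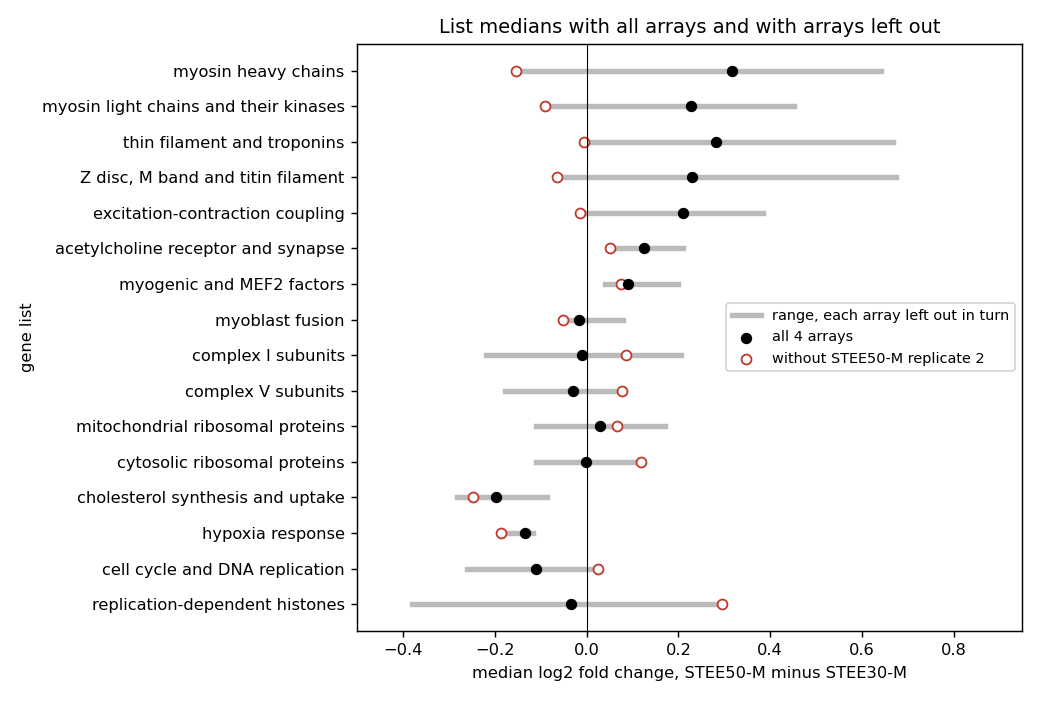
Median log2 fold change of STEE50-M minus STEE30-M for 16 gene lists, with all 4 arrays (black), without STEE50-M replicate 2 (open red) and over the range when each array is left out in turn (grey bars). The contraction lists cross 0 when that array is left out, and the cholesterol and hypoxia lists stay below 0.

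The other muscle lists held few calls, where 3.62% of all genes passed and 1.99% of those above background. At such shares few calls fall in lists of this size. Of 21 myogenic and MEF2 factors none passed, and the median was 0.09. *Mef2d* was at 14.24 and 14.06 in STEE50-M, against 13.36 and 14.10 in STEE30-M, and *Myog* at 14.70 and 15.24 in STEE50-M, against 14.50 and 14.72 in STEE30-M, so that both overlapped. None of 18 genes of the dystrophin complex passed. *Dmd*, dystrophin, was at 4.43 and 4.46 in STEE50-M, against 3.81 and 4.06 in STEE30-M, below background (0.51 ± 0.23). Of 30 FoxO and atrophy genes, *Fbxo40*, a muscle ubiquitin ligase that targets IRS1, passed. It was at 6.29 and 7.20 in STEE50-M, against 5.68 in both STEE30-M arrays and 5.59 and 5.73 in Ctrl-M, a difference of 1.07 ± 0.32. Its STEE50-M arrays were nearly 1 unit apart, and without STEE50-M replicate 2 the difference was 0.61 and did not pass. The call was also lost without either STEE30-M array, at an unchanged difference of 1.07.

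Respiratory chain genes, which the study takes up as mitochondrial genes, held 1 call between the doses. Of 86 measured genes, 82 were above background and 1 passed (1.16%, against 3.62% of all genes). It was *Cox8c*, a testis-type subunit of complex IV, at 4.68 and 4.84 in STEE50-M, against 5.55 and 5.69 in STEE30-M. Its mean of 5.19 lay below background. Thus none of the 82 passed, against 1.99% of all genes above background. The medians were -0.01 for 37 genes of complex I, 0.01 for 15 of complexes II and III, -0.09 for 18 of complex IV and -0.03 for 16 of complex V. With 1 array left out they were not stable, between -0.22 (without STEE30-M replicate 1) and 0.21 (without STEE30-M replicate 2) for complex I and between -0.18 (without STEE30-M replicate 1) and 0.08 (without STEE50-M replicate 2) for complex V. In *Ndufb8*, a complex I subunit, the arrays of the doses did not overlap, at 8.59 and 8.22 in STEE50-M, against 7.83 and 7.89 in STEE30-M (0.55 ± 0.24). *Cox6a2*, the muscle isoform of a complex IV subunit, was at 9.07 and 9.48 in STEE50-M, against 8.51 and 9.15 in STEE30-M, with overlap (0.45 ± 0.29). For complex I the array order was not that of the doses, since the mean signal was 11.67 and 11.46 in STEE50-M, against 11.36 and 11.73 in STEE30-M. None of 75 mitochondrial and none of 62 cytosolic ribosomal protein genes passed, with medians of 0.03 and -0.0025.

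Factors that set mitochondrial number held 1 call. *Ppargc1a*, which encodes the coactivator PGC-1α, was at 6.70 and 6.80 in STEE50-M, against 6.65 and 6.36 in STEE30-M and 6.20 and 6.43 in Ctrl-M. The STEE50-M arrays were just above those of STEE30-M, by 0.25 (95% confidence interval -0.30 to 0.79). Of 33 genes of PGC-1 and mitochondrial biogenesis, 1 passed, the retinoid X receptor gene *Rxrg*, at 4.24 and 3.82 in STEE50-M, against 3.13 and 3.19 in STEE30-M (0.87), all below background and not passing without STEE50-M replicate 1. None of 20 fusion and fission genes passed. Of 20 sirtuin and AMPK genes, *Prkag3*, the AMPK gamma subunit of glycolytic muscle, was higher, at 9.05 and 9.18 in STEE50-M, against 8.55 and 8.42 in STEE30-M (0.63 ± 0.23), with Ctrl-M at 8.31 and 8.69. Its call was lost without STEE50-M replicate 1, STEE50-M replicate 2 or STEE30-M replicate 2. The genes the study groups as mitochondrial were chosen on these samples, so their count is not independent evidence. Of them 1 of 12 passed, *Atp1b2*, a beta subunit of the sodium-potassium pump (0.65), whose call was lost without any 1 of the 4 arrays. Another beta subunit, *Atp1b1*, was at 9.79 and 10.49 in STEE50-M, against 9.23 and 9.64 in STEE30-M (0.71 ± 0.30), with Ctrl-M at 9.90 and 9.94, and its call was lost without STEE50-M replicate 2 (0.36), STEE30-M replicate 1 (0.50) or STEE30-M replicate 2 (0.91). These were 2 of 14 pump genes measured. Over all genes 3.62% passed.

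Lipid and sugar metabolism gave scattered calls, where 3.62% of all genes passed. Of 37 genes of fatty acid synthesis and storage, *Acaca*, acetyl-CoA carboxylase, was lower, at 10.61 and 10.43 in STEE50-M, against 11.22 and 11.04 in STEE30-M and 10.92 and 10.97 in Ctrl-M (-0.61 ± 0.23). Its call held only without STEE30-M replicate 2. None of 30 genes of cholesterol synthesis and uptake passed, but 23 had a negative log2 fold change, against 10736 of 21154 over all genes. Their median was -0.20 and lay between -0.28 and -0.09 with each array left out. *Mvd*, of the mevalonate pathway, was at 9.60 and 10.07 in STEE50-M, against 10.29 and 10.39 in STEE30-M (-0.51 ± 0.26), and *Sqle*, squalene epoxidase, at 11.76 and 11.97 in STEE50-M, against 12.26 and 12.24 in STEE30-M (-0.39 ± 0.23). The list's mean signal overlapped between the doses, at 11.06 and 11.24 in STEE50-M, against 11.19 and 11.39 in STEE30-M. *Acad10*, above, was the 1 call among 39 genes of fatty acid oxidation.

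Of 40 genes of glycolysis and glycogen, *Phkg1*, a phosphorylase kinase subunit, was higher (0.57) and *Pfkfb3*, which makes an activator of glycolysis, and *Ldhb*, a lactate dehydrogenase, were lower (-0.61 and -0.72). That is 7.5% of the list, against 3.62% of all genes. The call of *Phkg1* was lost without any 1 of the 4 arrays, and that of *Ldhb* held only without STEE50-M replicate 2, with -0.34 without STEE50-M replicate 1, both at signals below background. *Mpc2*, of the mitochondrial pyruvate carrier, was lower, at 7.04 and 6.97 in STEE50-M, against 7.43 and 7.84 in STEE30-M and 7.73 and 7.89 in Ctrl-M (-0.63 ± 0.25). It was the only one of 32 genes of pyruvate and the TCA cycle to pass, and its call held only without STEE30-M replicate 1. *Pfkfb3* is also a hypoxia response gene. In that list 20 of 24 measured genes had a negative log2 fold change, against 10736 of 21154 over all genes. Of the 24, 3 passed, all lower, against 1.91% of all genes. They were *Pfkfb3*, at 7.13 and 7.30 in STEE50-M, against 7.99 and 7.65 in STEE30-M, *Ankrd37* (-0.78) and the carbonic anhydrase *Car9* (-0.70), the last 2 below background. Without STEE30-M replicate 1, *Pfkfb3* was at -0.44 and *Car9* at -0.54, and neither passed there or without either STEE50-M array, while *Ankrd37* did not pass without STEE50-M replicate 2 or STEE30-M replicate 2. The mean signal of the hypoxia list was 9.93 and 10.00 in STEE50-M, against 10.13 and 10.16 in STEE30-M, and 10.07 and 10.11 in Ctrl-M. These list means did not overlap between the doses, in 1 of 67 lists described, while 28.4% of all genes did not overlap singly. The median was -0.14, and it lay between -0.19 and -0.12 with each array left out.

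Stress lists held 1 or 2 calls or none, where 3.62% of all genes passed. *Fgf21*, a secreted stress hormone under ATF4, was at 5.85 and 6.53 in STEE50-M, against 5.30 and 5.38 in STEE30-M (0.85 ± 0.28), and was the only one of 38 ATF4 and unfolded protein response genes to pass. Without STEE50-M replicate 2 it was at 0.51, and its call held only without STEE50-M replicate 1. *Rrm2b*, a ribonucleotide reductase subunit induced by p53, was at 10.58 and 10.84 in STEE50-M, against 9.99 and 10.14 in STEE30-M (0.65 ± 0.24), the 1 call among 25 p53 targets, lost without STEE50-M replicate 2 or STEE30-M replicate 1. Of 30 heat shock protein genes 2 were lower, against 1.91% of all genes. *Hspb6*, a small heat shock protein of muscle, was at 10.44 in both STEE50-M arrays, against 11.12 and 10.93 in STEE30-M (-0.59 ± 0.23), with Ctrl-M at 11.03 and 10.94, and its call held only without STEE30-M replicate 2. *Hspa1l*, of the HSP70 family and below background, was at 3.89 and 3.73 in STEE50-M, against 4.14 and 4.76 in STEE30-M (-0.64 ± 0.28), with -0.33 without STEE30-M replicate 2, and its call held only without STEE30-M replicate 1. None of 40 NRF2 targets and none of 13 aryl hydrocarbon receptor targets passed. *Col12a1*, a fibril-associated collagen, was at 11.45 and 11.53 in STEE50-M, against 12.68 and 11.91 in STEE30-M and 12.95 and 12.79 in Ctrl-M (-0.81 ± 0.30), and at -0.42 without STEE30-M replicate 1. Its call held only without STEE30-M replicate 2, at -1.19. *Col6a5* was higher (0.93), below background, and the other 41 collagen genes did not pass.

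Cytokine and immune genes passed mostly at signals below background, where a larger share of probe sets passed than above it (5.66% against 2.05%). Of 48 interleukin receptor genes, 18 of them above background, 4 passed, all higher (*Il2ra* 0.79, *Il1r2* 0.84, *Il1rl1* 0.67 and *Il2rg* 0.57), against 1.72% of all genes, and all 4 lay below background. Without 1 array they ranged between 0.37 (*Il2rg*, without STEE50-M replicate 1) and 1.15 (*Il1r2*, without STEE30-M replicate 1), and each call was lost without at least 2 of the 4 arrays. *Il2rg*, the common gamma chain, was at 5.00 and 4.60 in STEE50-M, against 4.20 and 4.26 in STEE30-M. Of 45 interleukins, 12 of them above background, 2 were higher and 3 lower (11.1%, against 3.62% of all genes). *Il12a*, a subunit of interleukin-12, was at 5.75 and 5.85 in STEE50-M, against 5.21 and 5.07 in STEE30-M (0.66), and its call held only without STEE30-M replicate 1. Both STEE30-M arrays of *Il12a* lay below the background level of 5.31, so it passed the background filter only through STEE50-M. *Ccl7*, a monocyte chemokine, was at 8.10 and 7.98 in STEE50-M, against 7.44 and 7.47 in STEE30-M and 7.48 and 6.96 in Ctrl-M (0.59 ± 0.23), and *Lta*, lymphotoxin alpha, was lower (-0.69). The call of *Ccl7* was lost without any 1 of the 4 arrays, and that of *Lta* without STEE50-M replicate 2 or STEE30-M replicate 1. Of 36 complement genes, 15 of them above background, 3 passed, all lower, against 1.91% of all genes, *Cr2* (-1.04), *C9* (-0.94) and *C7* (-0.72), of which only *C9* had a mean above background. Without STEE30-M replicate 1 *Cr2* and *C9* were at -0.59 and did not pass, and *C7* was at -0.34 without STEE50-M replicate 2. Of 45 interferon response genes, *Psmb8*, an immunoproteasome subunit, was lower, at 3.91 and 3.96 in STEE50-M, against 4.72 and 5.11 in STEE30-M, and *Dhx58*, a RIG-I-like receptor, was higher (0.54), both below background. These 2 are 4.44% of the list, against 3.62% of all genes. *Psmb8* passed with each array left out and *Dhx58* with none. The genes the study grouped as immune were chosen on these samples, so their count is not independent evidence: of 19 measured, 3 lay above background, 1 was higher (*Il12a*) and 3 were lower (*Cr2*, *Il3* and *Tnfrsf8*), against 1.72% higher and 1.91% lower over all genes. None of the 7 measured genes it grouped under fatty acid metabolism, chosen in the same way, passed or lay above background.

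Most signalling and turnover lists held no calls, where 3.62% of all genes passed. None of 52 genes of the TGF-beta, BMP and myostatin axis, 30 of the Notch pathway, 27 of the insulin and IGF system, 38 of autophagy, 26 of the circadian clock, 33 NF-kB targets and 37 proteasome subunits passed. Their medians lay between -0.05 and 0.09, and that of the clock was the highest of them. Of 60 Wnt pathway genes, the ligand gene *Wnt6* and the secreted antagonist *Frzb* were lower (3.33%), both below background, with a median of -0.03. Of 46 nuclear receptors 6.52% passed. *Nr4a2* and *Rxrg* were higher and the constitutive androstane receptor gene *Nr1i3* was lower (-0.61). None of the calls of *Wnt6*, *Frzb* and *Nr1i3* held with each array left out.

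Across 57 lists of pathways and families, which held 1851 measured genes, 27 genes were higher and 28 lower. That is 2.97% of them, against 3.62% of all genes. The 2 sets are not matched for signal, since 1392 of the 1851 lay above background. Above background 1.99% of all genes passed, and at or below it 5.66% of probe sets did. Outside the 30 genes with the highest or lowest t, 53 genes of the lists and of those the study names passed, and 5 of these did so with each array left out (*Acad10*, *Col6a5*, *Cox8c*, *Psmb8* and the chemokine *Ccl26*). Of these 5 only *Acad10* lay above background.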

How the data were processed

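The series holds 6 arrays of C2C12 myotube RNA in 3 groups of 2, of which the 4 of STEE50-M and STEE30-M entered the fit. The values are log2 signals that the authors made with Expression Console 1.4.1.46 by SST-RMA (background correction, quantile normalization and probe summary) and deposited at 2 decimals, and the value table of the series held the same 173076 values. The number of arrays limits the precision. Of 28846 entries, 6640 array controls were left out. Of the 22206 probe sets tested, 21367 had 1 gene symbol, 836 several and 3 none, and genes were counted by the brightest probe set of each symbol. The sheets of the authors' own comparisons (group averages, fold changes and p-values) were not used. The thresholds are those of the study, whose fold was read as linear.

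The doses were compared with limma 3.58.1 in R 4.3.3 (lmFit and eBayes, 2 residual and 6.149 prior degrees of freedom, Benjamini-Hochberg over all probe sets), after tests on simulated data. Named were the 15 highest and 15 lowest moderated t among probe sets with 1 symbol, above background, called and without overlap, up to 4 members of each gene list by p, the brightest or most outlying members of a list described, and genes the study names. Of the 15 lowest, 1 gene is not reported here. Gene lists, 67 in all, were described by counts and medians with no test. Members and lists were chosen with earlier results of these data known. Alternatives were another variance model, all 6 arrays, quantile normalization or median centring, no dim probe sets, the replicate number as a block, a 1.5-fold minimum and leaving out each array. The lists of contraction were pooled after the data were seen. Promoters came from RefSeq (GRCm38.p6).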

Additional observations from a re-analysis of the deposited data

How the results depend on the processing

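The 821 calls became 354 when dim probe sets were left out (227 higher, 127 lower), and 1023 with all 6 arrays in the fit, 851 after quantile normalization (435 higher, 416 lower), 820 after median centring, 675 with a prior that follows the signal, 732 at 1.5-fold and 645 without moderation. Without moderation 2 probe sets had an adjusted p under 0.05, *Clrn2* and *Exoc3*, whose replicates were identical at 2 decimals and whose doses differed by less than 0.1. Leaving out 1 array gave 610 to 1091 calls, 317 to 534 higher and 293 to 624 lower, and above background 154 to 411, 81 to 281 higher and 73 to 130 lower, the lowest counts without STEE50-M replicate 2 and the highest above background without STEE30-M replicate 2. None of these 4 fits left a probe set under an adjusted p of 0.05. Same-numbered arrays did not deviate together over all probe sets (r = -0.01). This correlation cannot show whether same-numbered arrays shared a culture or run that touched only some genes. With the replicate block limma gave 737 calls, 237 of them above background. Of the 30 genes by t, the calls of *Slc1a3*, *Pde4b*, *Cdyl2*, *Depdc7*, *Rnf138*, *Slco1a6*, *Gm11096*, *Npy1r*, *Dact1*, *Gsdma2*, *Abcb1a*, *Chrdl1* and *C9* were lost without moderation, and that of *Npy1r* also with all 6 arrays. No difference of the 30 genes by t or the 53 other called genes changed sign under any alternative, and the calls of the 53 were lost 139 times and kept 73 times when 1 array was left out. The constant sign is no sign of stability when an array is left out. In every called probe set the arrays of the doses did not overlap, so leaving out 1 array could not reverse it. List medians moved by more than the replicate spread in 15 to 19 of 67 lists when 1 array was left out, in 9 without members not above background, in 4 after quantile normalization and in 2 after median centring. Without those members the median of the study's immune list was 0.13, against -0.16 with them. With 2 arrays a dose, differences below 0.52 on the log2 scale passed for no probe set.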
